A study of Rattus norvegicus with 24 samples.

Results

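Acute phase proteins are secreted proteins whose level in plasma changes during inflammation, and 6 of their genes were followed here in lung and blood of rats long after silica dust inhalation. The rule took every probe whose gene symbol in the deposited tables is LCN2, HP, ORM1, LBP, CP or LRG1. It found 5 probes among the 21792 on the array, 1 each for Lcn2, Hp, Orm1, Lbp and Lrg1. No probe carried the symbol of ceruloplasmin, CP, which is therefore not analysed here. The rule itself used no measured value, but its genes were chosen with earlier results of these data known.

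The arrays are Illumina rat expression BeadChips, which read RNA as the brightness of beads that carry a gene's probe. The rats were males of the strain spelled CDF Fisher 344 in the labels, with an age of 3 months at a point of the study that is not stated. Silica rats breathed crystalline silica at 15 mg/m3 for 6 hours a day on 5 days, control rats breathed air, and all were killed 32 weeks after exposure ended. The 12 rats, 6 per exposure, gave 24 arrays: each rat gave 1 of lung and 1 of blood, which makes 4 groups of 6, and no group carried any other treatment or allele. Blood RNA had its globin transcripts removed. The lung samples carry the same extraction text as the blood samples, so the isolation of lung RNA is not described by the sources used here.

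In an acute phase response, macrophages release interleukin-6, interleukin-1 and related cytokines, and hepatocytes answer with secreted proteins through the transcription factors STAT3, C/EBP-beta and NF-kappaB. Epithelial cells and leukocytes outside the liver can transcribe some of the same genes. Lcn2 (lipocalin 2) binds the siderophores with which bacteria gather iron, Hp (haptoglobin) binds free haemoglobin, Orm1 (orosomucoid 1, alpha-1-acid glycoprotein) carries small basic and lipophilic molecules in plasma, Lbp hands bacterial lipopolysaccharide to the receptor CD14, and Lrg1 (leucine-rich alpha-2-glycoprotein 1) modifies TGF-beta signalling in endothelium. Lcn2 and Lrg1 proteins are also stored in neutrophil granules. Only RNA was measured here, not protein.

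Promoters are shown because Lcn2, Orm1 and Lrg1 are classical targets of the cytokine-driven factors above. The sequences are those of RefSeq on build GRCr8, each 300 bases long and read in the direction of the gene, from 250 bases before the transcription start to 50 after it. Of the 5 genes with a probe, these 3 matched the table, and Hp and Lbp did not. The Lcn2 window is chr3:36081731-36082030 on the minus strand, the Orm1 window chr5:81788259-81788558 on the plus strand, and the Lrg1 window chr9:1036882-1037181 on the minus strand. Capitals mark every match, on either strand, to the motifs named next.
Lcn2: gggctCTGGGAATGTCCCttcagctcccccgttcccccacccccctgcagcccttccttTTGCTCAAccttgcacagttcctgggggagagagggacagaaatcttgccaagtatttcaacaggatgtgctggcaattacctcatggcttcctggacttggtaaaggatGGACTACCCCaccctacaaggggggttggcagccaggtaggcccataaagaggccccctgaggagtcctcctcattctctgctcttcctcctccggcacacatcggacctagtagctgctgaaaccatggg
Orm1: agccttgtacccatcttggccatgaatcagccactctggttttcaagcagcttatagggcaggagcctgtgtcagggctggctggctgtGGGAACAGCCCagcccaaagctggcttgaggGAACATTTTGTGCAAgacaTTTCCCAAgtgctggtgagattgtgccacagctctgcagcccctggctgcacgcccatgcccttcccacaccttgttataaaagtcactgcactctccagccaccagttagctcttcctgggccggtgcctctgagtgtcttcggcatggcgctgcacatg
Lrg1: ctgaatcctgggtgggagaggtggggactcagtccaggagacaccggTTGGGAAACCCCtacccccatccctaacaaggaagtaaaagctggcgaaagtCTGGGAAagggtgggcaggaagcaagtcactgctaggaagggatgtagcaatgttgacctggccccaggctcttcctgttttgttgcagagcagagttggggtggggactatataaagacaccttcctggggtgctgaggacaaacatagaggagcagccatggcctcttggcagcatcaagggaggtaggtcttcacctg

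The motifs searched were a kappaB-type motif (GGG, 5 bases of any kind, CC), a C/EBP-type motif (TTNNGNAA), a STAT-type motif (TTCNNNGAA), the type II interleukin-6 element (CTGGGAA) and a glucocorticoid-type motif (G, any base, ACA, 3 bases of any kind, TGT, any base, C). All 3 promoters held the kappaB-type and the C/EBP-type motif, which stood in 47.3% and 41.3% of all 33469 promoters of that table. In Lcn2 the kappaB-type matches lay at -243 to -234 (GGGAATGTCC), with a match on the other strand 1 base further on, and at -81 to -72, and the C/EBP-type match at -191 to -184. In Orm1 the kappaB-type match at -161 to -152 also overlaps one on the other strand. Its C/EBP-type matches lay at -123 to -116 and -111 to -104, the former overlapping a glucocorticoid-type match at -130 to -118. In Lrg1 the kappaB-type match at -201 to -192 reads on both strands and overlaps the C/EBP-type match at -203 to -196. The type II element stood in Lcn2 at -245 to -239, overlapping the kappaB-type match there, and in Lrg1 at -151 to -145, but not in Orm1, and in 11.3% of all promoters. The glucocorticoid-type motif, found only in Orm1 of these 3, stood in 0.439% of all promoters. No STAT-type match lay in these windows, while 8.87% of all promoters had one. A match is a description of the letters and not evidence of binding.

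Values are given as raw bead signal, a linear brightness, and as log2 values after background correction and quantile normalization with limma's neqc within a tissue. A probe counts as detected on an array where its detection p against negative controls is under 0.05. Lung arrays detected 11013 to 11733 probes and had a median raw signal of 66.1 to 74.9, while for blood these were 7498 to 8469 probes and 57.6 to 67.6. A point of processing touches every dim probe. The background SD that neqc inferred ran from 83.1 to 136 on lung arrays and from 87.5 to 160 on blood arrays, raised by a few bright probes with a poor detection p (20 to 27 per lung array and 4 to 10 per blood array above a signal of 500). Taken from the middle of the detection p scale, it ran from 4.8 to 5.48 and from 4.99 to 6.19. With the larger SD, differences between dim probes shrink, so values with the smaller SD, a setting added after seeing the data, stand beside the main ones where the size differs. Blood of air rats 2 and 6 and silica rat 6 stood apart from the other 9 blood arrays, at 18.6, 9.4 and 13.5 on the first principal component against -6.1 to -0.9, and blood results are given with and without them.

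**Figure D1:**
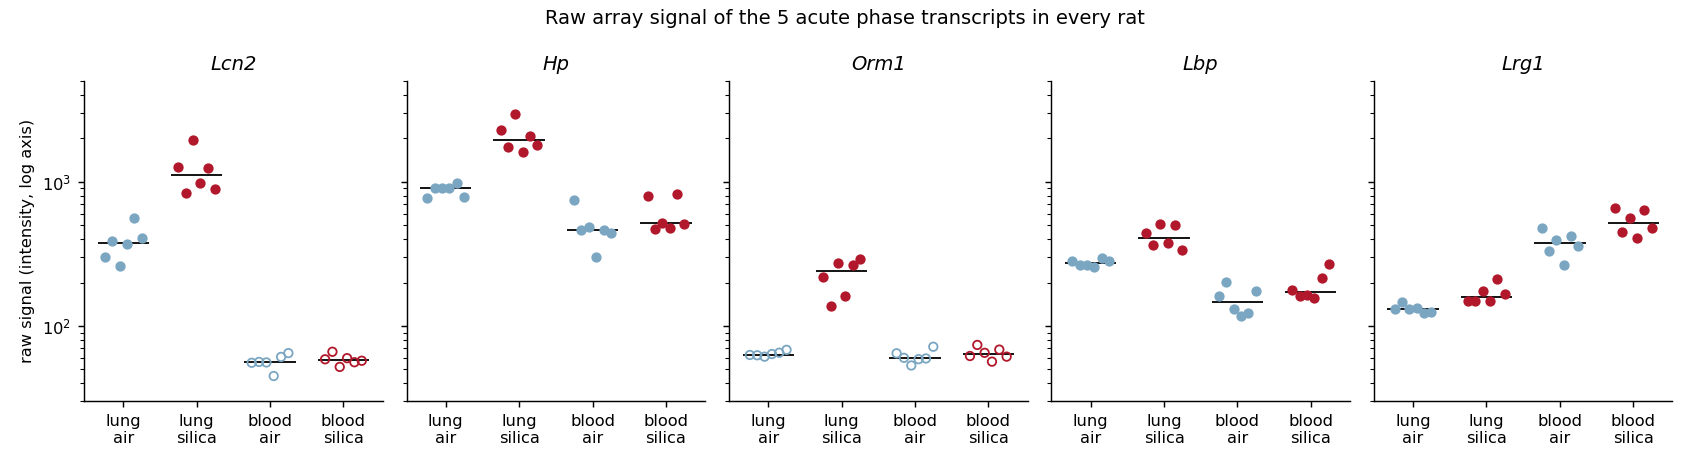
Raw bead signal (log axis) of the 5 transcripts on all 24 arrays, 1 point per rat, with filled points where the probe was detected, open points where it was not, and a line at the group median. In lung the silica rats lie above the air rats for Lcn2, Hp and Lbp, as they did after normalization for 4.3% of all probes. Orm1 was undetected in every air lung. Lrg1 is separated by a narrow gap (147.5 against 148.4) and its groups overlapped after normalization. Lcn2 and Orm1 were undetected in every blood sample.

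Lcn2, the siderophore binder, had the largest increase of the 5 in lung in the main setting, and Orm1 had it with the smaller background SD. Its raw signal in air lungs was 260.8 at the lowest, 378.8 at the median and 557.6 at the highest, and in silica lungs 834.7, 1117.5 and 1946. Every silica lung was above every air lung, with silica rat 3 the highest and silica rat 2 the lowest of the exposed. On the log2 scale the level went from 8.12 ± 0.51 to 10.01 ± 0.44 (SD, n = 6 per group), a fold change of 3.71 (log2 1.89 ± 0.26 SE, adjusted p = 0.000986). This was rank 13 from the top by fold change of the 11285 probes tested in lung. The air lungs themselves spanned 7.45 to 8.83, a wide spread among unexposed rats. With the smaller background SD the change was 3.32-fold (adjusted p = 0.000148).

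Hp, the haemoglobin scavenger, changed with less spread. Raw signals were 773.2, 907 and 973.9 (lowest, median and highest) in air lungs and 1612, 1938.5 and 2976 in silica lungs, again with no overlap and with silica rat 3 highest. The log2 level rose from 9.60 ± 0.17 to 10.91 ± 0.28, a 2.48-fold increase (log2 1.31 ± 0.12 SE, adjusted p = 0.000113), at rank 32 by fold change.

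Orm1, the plasma carrier, went from undetected to detected. None of the 6 air lungs detected it, at raw signals of 62.99, 62.67, 61.29, 63.91, 65.28 and 68.38 for rats 1 to 6. All 6 silica lungs did, at 217.7, 136.7, 272.8, 162.3, 265.2 and 290.4. The lowest exposed rat, silica rat 2, was far above the highest control, air rat 6. Since an undetected group has only an upper limit, the fold is a bound: Orm1 was at least 1.77-fold higher after silica (adjusted p = 0.00264, log2 means 6.47 and 7.30). With the smaller background SD the bound was at least 7.03-fold (adjusted p = 7.89e-07, means 4.55 ± 0.11 and 7.41 ± 0.59). The size of the Orm1 change thus rests on the background correction. Orm1 met the detection filter only through the silica group and so had to differ. Its p-values and its call are therefore no support of their own.

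Lbp, the lipopolysaccharide carrier, rose by less. Its raw signal was 256.6, 273.5 and 294.4 in air lungs and 334, 410.4 and 507.9 in silica lungs, and no exposed lung reached down to a control. The log2 level rose from 7.60 ± 0.12 to 8.30 ± 0.25, a 1.62-fold increase (log2 0.70 ± 0.11 SE, adjusted p = 0.00163), at rank 98.

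Lrg1 moved least. Raw signals were 122.3, 131.2 and 147.5 in air lungs and 148.4, 157.9 and 212.4 in silica lungs, groups that just fail to overlap. After normalization they did overlap, with 3 of 6 silica rats above the highest air rat, air rat 2. The log2 level was 6.81 ± 0.07 and 6.98 ± 0.12, a 1.13-fold increase (log2 0.17 ± 0.05 SE, adjusted p = 0.0412). With the smaller background SD it was 1.35-fold (log2 0.43 ± 0.11, adjusted p = 0.0151). The call was fragile: it ended in 9 of the 12 fits that left out 1 rat (adjusted p = 0.0517 to 0.0821, without air replicates 1, 3, 4, 5 or 6 or silica replicates 3, 4, 5 or 6), when arrays were shifted to a common median (0.139), without the filter on dim probes (0.0739) and with the replicate number as a block (0.135).

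The 4 probes detected in both lung groups (Lcn2, Hp, Lbp and Lrg1) passed the adjusted threshold of 0.05 upward in lung, where 7.59% of all 11285 tested probes did so and 16.1% passed in either direction. Orm1 also passed, but it met the detection filter only through the silica group and so had to differ. The normalized groups did not overlap for Lcn2, Hp and Lbp, as for 4.3% of all probes with silica higher. Lcn2 and Hp were among the 0.416% that passed with at least a 2-fold rise, and Lbp joined them at the 1.5-fold limit, past which 1.15% of probes lay. The median log2 fold change of all tested probes was -0.00572. Since the members were chosen with earlier results of these data known, these calls and shares describe them and are no independent support. In whole lung RNA, more RNA per cell and more cells that carry the transcript cannot be told apart. The labels do not say that the rats came from separate exposures or cages, and the p-values measure the spread between these rats.

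In blood, none of the 5 transcripts passed the test, and neither did any other probe (0% of 7864 by limma, with 680, or 8.65%, at an unadjusted p under 0.05). Lcn2 and Orm1 were not detected on any of the 12 blood arrays, with raw Lcn2 signals of 45 to 64.9 after air and 52 to 66.3 after silica, and Orm1 signals of 53.2 to 71.8 and 56.6 to 73.9. Both were left out of the blood test by the filter on dim probes.

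Hp in blood had raw signals of 301.6, 462.2 and 742.4 after air and 469.5, 516.4 and 820 after silica, and 1 of 6 silica rats lay above the highest air rat on the log2 scale. The log2 means were 8.47 ± 0.30 and 8.80 ± 0.32 (1.26-fold, log2 0.33 ± 0.17 SE, adjusted p = 0.65). Lrg1 had the largest difference of the 3 detected members. Its raw blood signals were 480.9, 330.4, 394.4, 266.1, 422.5 and 357.9 in air rats 1 to 6 and 653.9, 450.3, 558.9, 406, 640.5 and 478.5 in silica rats 1 to 6, with overlapping groups. Its log2 means were 8.04 ± 0.24 and 8.61 ± 0.30 (1.48-fold, log2 0.56 ± 0.15 SE, unadjusted p = 0.00287, adjusted p = 0.261), with 4 of 6 silica rats above the highest air rat. It stood at rank 20 of 7864 by fold change but did not pass the adjustment. Of 8 neutrophil markers tested in blood none passed, as no probe did. The median log2 fold change of these 8 was 0.201, against -0.001 for all genes. The summed level of the 8 was 4087 to 5865 in air blood and 5759 to 7765 in silica blood, ranges that overlap. S100a8, the brightest of them, stood at 11.72 ± 0.28 and 12.34 ± 0.23 (adjusted p = 0.225). The part of this in the Lrg1 difference was not tested.

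Lbp in blood depended on the 3 arrays that stood apart. Its raw signals were 160.8, 201.5, 131.8, 116.8, 122.2 and 174.6 in air rats 1 to 6 and 179, 162.4, 162.8, 155.6, 216.5 and 269.8 in silica rats 1 to 6. On the log2 scale, the highest value of each group was in an array that stood apart (air rat 2 at 7.05, silica rat 6 at 7.33), and air rat 6 was the next highest control. Over all 12 arrays Lbp was 1.13-fold higher after silica (means 6.83 ± 0.13 and 7.01 ± 0.16, log2 0.18 ± 0.08 SE, adjusted p = 0.558). With the smaller background SD it was 1.32-fold higher (log2 0.41 ± 0.15 SE, adjusted p = 0.417). Without those 3 arrays, an alternative chosen after seeing the data, the difference under the main correction was 0.20 ± 0.02 (adjusted p = 0.0343). On the scale of all 12 arrays the remaining air rats lay at 6.71 to 6.77 and the remaining silica rats at 6.92 to 7.01. Hp (adjusted p = 0.753) and Lrg1 (0.416) still did not pass without those 3 arrays.

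**Figure D2:**
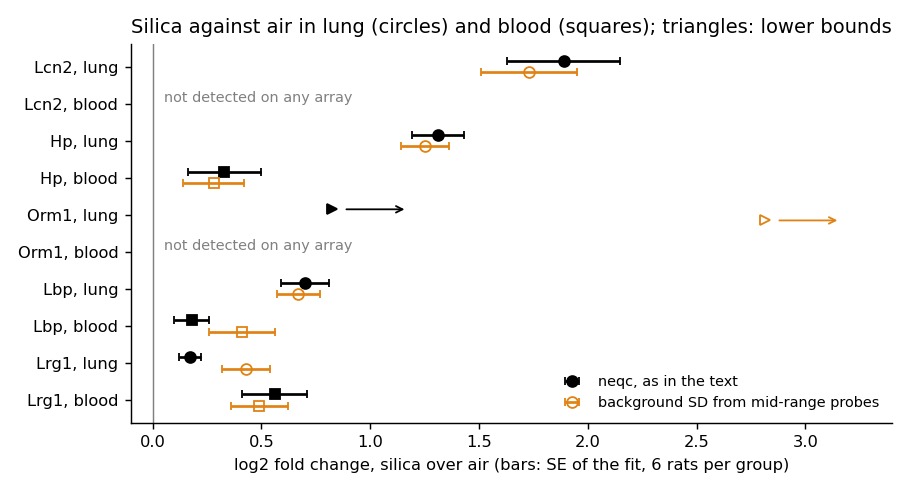
Log2 fold change of silica over air for each transcript in lung (circles) and blood (squares), with the SE of the fit, under the main background correction (black) and with the smaller background SD (orange). Triangles with arrows are lower bounds for Orm1, which was undetected in air lungs (at least 1.77-fold and at least 7.03-fold), and Lrg1 in lung moves from 0.17 to 0.43 between these corrections while Lcn2 goes from 1.89 to 1.73.

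The tissues were compared within rats, by subtracting a rat's blood log2 value from its lung log2 value after the 24 arrays were normalized together, and asking whether that difference changed with silica. Hp alone of the 3 members detected in both tissues passed, where 3.5% of 7594 probes passed in all and 2.24% with the greater change in lung. Its mean lung minus blood value was -0.75 in air rats and 0.44 in silica rats, so the silica effect was larger in lung by 1.19 ± 0.16 on the log2 scale (SE, adjusted p = 0.00139), with no overlap between 6 and 6 rats. Without the 3 rats whose blood stood apart it was 1.24 ± 0.19 (adjusted p = 0.00405). That call was lost when arrays were shifted to a common median (0.79 ± 0.31, adjusted p = 0.341). Lbp showed 0.16 ± 0.16 (adjusted p = 0.708), and 0.52 (adjusted p = 0.0498) with each tissue normalized on its own. Lrg1 showed -0.32 ± 0.13 (adjusted p = 0.214), with the larger difference in blood. With the smaller background SD the Lrg1 value was -0.09 ± 0.17 (adjusted p = 0.868), so its size rests on the background correction. Lcn2 and Orm1, undetected in blood, could not enter this test.

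Levels were then set side by side across the 4 groups. Lcn2 was detected in lung and not in blood. In air rats it was at least 2.2-fold higher in lung than in blood (adjusted p = 0.000245, at least 6.46-fold with the smaller SD), and in silica rats at least 7.4-fold (23.3-fold). Lcn2 entered this comparison only through its detection in lung and so had to differ, and its p-values here are no support. Its order was silica lung, then air lung, then both blood groups, which did not differ beyond their spread. Lrg1 ran the other way, 6.46-fold lower in air lung than in air blood (log2 -2.69 ± 0.08 SE, adjusted p = 1.65e-07, 6 of 6 rats). Its 2 lung groups lay below both blood groups without overlap. The direction held under every scaling but the size did not. The log2 value was -3.45 with the smaller SD, -1.08 with a median shift, -1.24 with each tissue normalized on its own and -1.49 in raw signal. In this comparison 74.8% of 11555 probes passed, so passing it is ordinary. Without air rats 2 and 6, whose blood stood apart, lung minus blood was 1.08 for Lcn2 (adjusted p = 0.0049) and -2.78 for Lrg1 (adjusted p = 6.29e-06). Orm1 was detected in silica lungs alone, at least 1.4-fold above silica blood (2.95-fold with the smaller SD), and the other 3 groups overlapped.

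For Hp and Lbp no order between the tissues can be given. With all 24 arrays quantile normalized together, air lung lay below air blood, for Hp by -0.75 ± 0.12 (adjusted p = 0.00105) and for Lbp by -0.64 ± 0.10 (adjusted p = 0.000742), and without air rats 2 and 6 by -0.84 and -0.49. The raw signal put both higher in lung, by 0.91 and 0.88 on the log2 scale, and so did a median shift (1.13 and 0.62) and normalization of each tissue on its own (1.13 and 0.77). The median of all probes shifted with the scaling as well, from 0.01 in the main setting to 0.24, 0.35 and 0.76 under the median shift, the separate normalization and the raw signal.

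**Figure D3:**
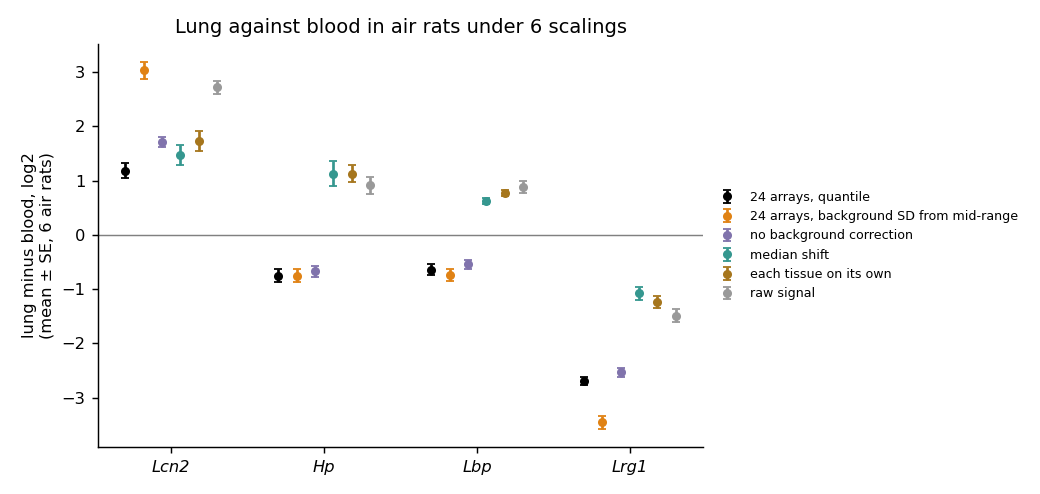
Lung minus blood log2 value in the 6 air rats (mean with SE) for 4 transcripts under 6 scalings. Lcn2 stays above 0 and Lrg1 below 0 in each, while Hp and Lbp change sign between the joint quantile settings and the other 3.

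To see whether the 5 transcripts vary together between rats of a group, they were compared across the 6 silica lungs. Lcn2 and Hp ordered the rats almost alike (Pearson r = 0.93, exact permutation p = 0.00694, adjusted 0.0903 over 13 pairs). Spearman rho was 0.94 (exact permutation p = 0.0167, adjusted 0.217), and r was 0.76 without the 2 rats farthest from the median. Lbp and Lcn2 had r = 0.87 (exact permutation p = 0.0167, adjusted 0.108), rho 0.83 (exact permutation p = 0.0583, adjusted 0.334) and r = 0.60 without 2 rats. Neither passed the adjustment, and no other pair did. With a median shift both passed (r = 0.96, adjusted exact permutation p = 0.0451, and r = 0.93, 0.0361). Silica rat 2 was lowest for all 5 transcripts after normalization. The highest was silica rat 3 for Lcn2 and Hp, silica rat 6 for Orm1 (7.80) and silica rat 5 for Lbp and Lrg1. For the members seen in both tissues, lung and blood of the same silica rat had r = 0.50 for Hp, -0.43 for Lbp and -0.21 for Lrg1, with exact permutation p of 0.318, 0.472 and 0.699.

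**Figure D4:**
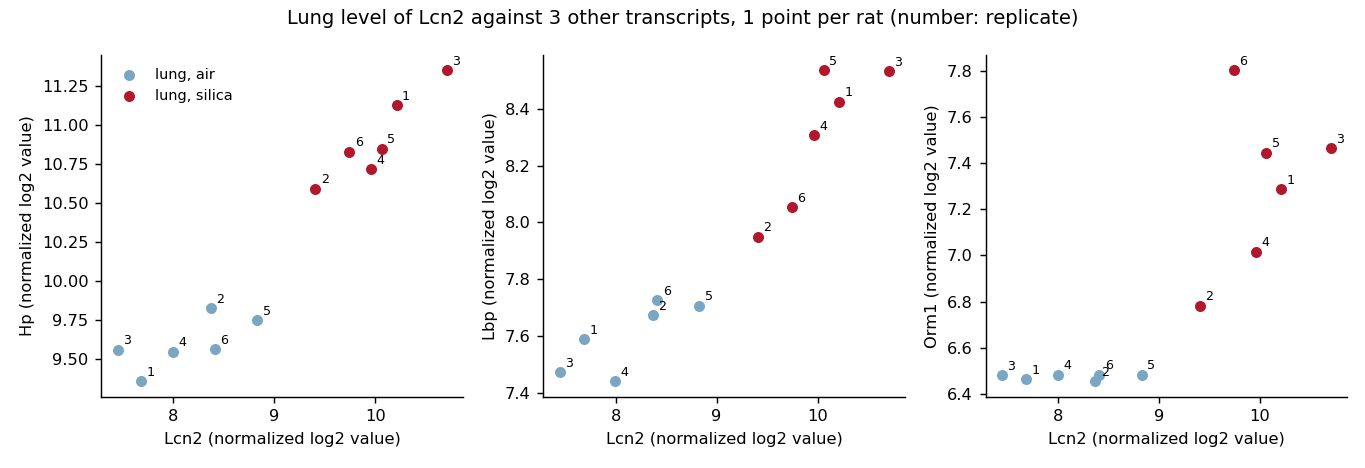
Normalized log2 value of Lcn2 against Hp, Lbp and Orm1 in the 12 lungs, 1 point per rat with its replicate number. Silica rat 3 is at the top for Lcn2 and Hp and silica rat 2 at the bottom of the exposed rats in all 3 panels, while Orm1 stays between 6.46 and 6.48 in every air lung.

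After each group's mean was subtracted over the 12 lung arrays, the transcripts most like a member were, as a description with no test, Neu1 (r = 0.96), Ttc9 (0.94) and Slc26a4 (0.93) for Lcn2, and Mapk9 (0.88), Il1r2 (0.88) and Gdpd3 (0.87) for Hp. For Lbp they were Cthrc1 (0.92), Rasd1 (0.90) and LOC686275 (0.89). For Orm1 they were Htr2b (0.93), the complement component C9 (0.90) and C4bpb (0.89), a chain of the C4b-binding protein. For Lrg1 they were Med16 (0.94), Ifit3 (0.90) and Slfn1 (0.89). Each was picked as the highest of the correlations with all tested genes, so a high r follows in part from that selection. Among the members themselves the closest pairs were Lcn2 with Hp (0.78) and Lcn2 with Lbp (0.77). These arrays were normalized together, and the column names do not give their chips.

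Other acute phase genes rose in part. Of 12 tested in lung, 5 passed upward and none downward, with a median log2 fold change of 0.049 against -0.006 for all 11195 genes, of which 7.6% passed upward and 8.59% downward. One of the 5, A2m, met the detection filter only through the silica group. With the smaller background SD 6 of the 12 passed upward, the added one being the protease inhibitor gene Serpina3n (adjusted p = 0.0459), and the median was 0.413 against -0.02 for all genes, of which 7.94% passed upward. Slpi, an inhibitor of neutrophil elastase, rose 2.26-fold (log2 10.59 ± 0.30 to 11.76 ± 0.64), and Cfb, complement factor B, rose 1.59-fold (12.53 ± 0.08 to 13.20 ± 0.24). The probe with the file's symbol KNG1, for kininogen, precursor of bradykinin, rose 2.07-fold, from raw signals of 66.9 to 77.6 in air lungs to 190 to 423 in silica lungs (6.85-fold with the smaller SD). Rat kininogen genes are similar copies that this probe may not separate. Fgg, the fibrinogen gamma chain, rose 1.36-fold. A2m, alpha-2-macroglobulin, a major acute phase protein of the rat, was below detection in the 6 air lungs but detected in each of the 6 silica lungs, at least 1.04-fold higher (at least 1.43-fold with the smaller SD). Its raw signals of 58.1 to 67.4 and 67 to 87.9 overlap narrowly. The haemopexin gene Hpx, whose product binds free haem, did not pass (1.22-fold, adjusted p = 0.0856, and 1.53-fold, adjusted p = 0.0516, with the smaller SD), nor did the hepcidin gene Hamp (log2 6.68 ± 0.31 and 6.67 ± 0.18).

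Genes of the cytokine pathways that induce these proteins were read next. Of 16 tested, 2 passed upward and 2 downward (12.5% each), where 7.6% and 8.59% of all genes did. Counts this close to those shares are no result about the inducers. Il1b, the cytokine interleukin-1 beta, rose 1.57-fold (9.69 ± 0.36 to 10.34 ± 0.21, adjusted p = 0.0169), and Jak2, a kinase of cytokine receptors, rose 1.23-fold. Il6r, the interleukin-6 receptor, was 1.12-fold lower and Rela, a subunit of NF-kappaB, 1.15-fold lower. The Rela call ended with the smaller background SD (log2 -0.18 ± 0.07, adjusted p = 0.0739). Probes for Il6, Il6st, Lif and Il22 were undetected on all 12 lung arrays. Stat3 (8.85 ± 0.18 and 8.91 ± 0.11), Socs3 (6.51 ± 0.03 and 6.53 ± 0.03) and Cebpb (12.87 ± 0.16 and 13.08 ± 0.20) did not pass. Socs3 lay near the floor and was detected on 4 of the 6 air lungs.

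Receptors and partners of the 6 proteins passed in 4 of 9 cases, 3 upward, where 7.6% of all genes passed upward and 8.59% downward. Cd14, the receptor to which Lbp protein delivers lipopolysaccharide, rose 1.64-fold (9.17 ± 0.18 to 9.88 ± 0.28), while Tlr4, the signalling receptor downstream, stood at 6.66 ± 0.04 and 6.67 ± 0.04. Hmox1, the haem oxygenase that degrades haem, rose 2.12-fold (8.35 ± 0.33 to 9.44 ± 0.17), and Cyba, an NADPH oxidase subunit, 1.44-fold. Acvrl1, an endothelial receptor of the TGF-beta family, was 1.26-fold lower. The Lcn2 receptor gene Slc22a17 (6.91 ± 0.07 and 6.95 ± 0.08) and Mmp9 (6.76 ± 0.05 and 6.83 ± 0.07), whose product forms a complex with Lcn2 protein, did not pass.

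Of 11 iron handling genes, 3 rose and 1 fell, where 7.6% of all genes passed upward and 8.59% downward. Tf, the plasma iron carrier transferrin, rose 1.64-fold (11.59 ± 0.14 to 12.31 ± 0.23), Slc11a2, an iron importer, 1.35-fold, and Ftl1, the ferritin light chain, 1.31-fold. Heph, an iron oxidase of the ceruloplasmin family, was 1.35-fold lower (9.19 ± 0.09 to 8.76 ± 0.11, adjusted p = 0.000703). Fth1, the ferritin heavy chain, did not pass (14.18 ± 0.08 and 14.12 ± 0.09).

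**Figure D5:**
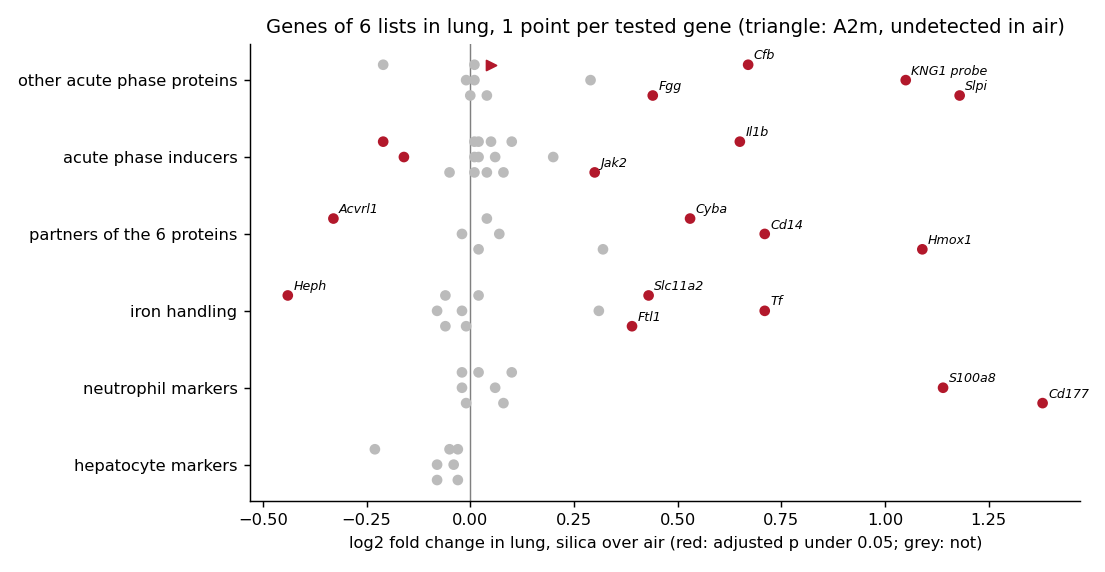
Log2 fold change in lung (silica over air) of each tested gene in 6 lists, red where the adjusted p was under 0.05 and grey where it was not. The triangle is A2m, undetected in air lungs. Red marks to the right number 5 of 12 other acute phase genes and 2 of 9 neutrophil markers, where 7.6% of all genes passed upward. No hepatocyte marker is red.

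Markers of the cells that could carry these transcripts were read beside them, in lung against the 7.6% of all genes that passed upward and 8.59% downward. Of 7 hepatocyte markers tested none passed. Their median log2 fold change was -0.046, and -0.421 with the smaller background SD, where again 0 of 7 passed. Apob, Tat, Cps1 and Hnf4a were undetected on all 12 lung arrays. The summed linear level was 639 to 885 in air lungs and 627 to 1017 in silica lungs, and Alb had a log2 difference of -0.23 ± 0.25. Several of the 7 lay near the floor (Apoa2 at 6.50 ± 0.04 and 6.47 ± 0.03), so the sum says little of those. Of 9 neutrophil markers tested, Cd177 (2.6-fold) and S100a8 (2.2-fold) rose, and the summed level was 2726 to 3616 in air lungs and 4748 to 8823 in silica lungs. These 2 genes carry that sum: without them the other 7 summed to 655 to 671 and 660 to 692. Those 7 lay near the floor in the main setting (group means of 6.50 to 6.76), so their sum cannot show whether they changed. The median log2 fold change of the 9 was 0.058, and with the smaller background SD 0.383, against -0.02 for all genes. Cd177 stood near the floor in blood (6.56 ± 0.03 and 6.58 ± 0.04), where S100a8 was bright. Probes for Ctsg, Ltf and S100a9 were undetected on every lung array and on every blood array too. With the smaller background SD 4 of the 9 passed upward, Csf3r (1.37-fold) and Cxcr2 (1.3-fold), receptors of neutrophils, being the added ones. In blood Lcn2 was undetected on every array. The summed neutrophil level there was 4087 to 7765 over both groups, and 1152 to 1907 without S100a8 and Cd177. Values in blood do not tell which cells carry the Lcn2 transcript in lung, and this was not tested.

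Macrophage markers rose in 3 of 7 (Cd68 1.72-fold, Lgals3 1.46-fold, Itgax 1.06-fold), with summed levels of 8897 to 14239 and 14744 to 20422 and Marco undetected throughout. Itgax lay near the floor (6.57 ± 0.03 and 6.66 ± 0.03) and rose 1.4-fold with the smaller background SD. Alveolar type 2 markers, of the surfactant cells, rose in 4 of 9 (Sftpd 1.49-fold, Lpcat1 1.41-fold, Napsa 1.22-fold, Sftpa1 1.18-fold), with summed levels of 51706 to 57294 and 55935 to 67078. Alveolar type 1 markers fell in 4 of 7 (Cav1 1.31-fold, Ager 1.18-fold and Hopx 1.16-fold lower, and Aqp5 with a log2 change of -0.33). No airway secretory marker of 5 passed, with Scgb1a1 at 14.05 ± 0.05 and 14.02 ± 0.03 and Scgb3a2 at 10.13 ± 0.27 and 10.07 ± 0.42. Scgb3a1 varied widely between rats (9.04 ± 1.16 and 10.09 ± 2.21, adjusted p = 0.532), and the summed level of that list was 17705 to 21533 in air and 17583 to 28476 in silica lungs. Ciliated cell markers split, with Tekt2 1.36-fold higher and Tppp3 1.39-fold lower of 6. No lymphocyte marker of 5 passed, with Cd3d at 7.78 ± 0.18 and 8.33 ± 0.47, and with the smaller SD 2 did. The part of these shifts in the rise of the 5 transcripts was not tested. In blood no gene of any of these lists passed (with the smaller SD 1 of 3 other acute phase genes did). Slpi there had a 1.69-fold difference without overlap between the groups (10.21 ± 0.25 and 10.97 ± 0.23, adjusted p = 0.115), where 0.381% of blood probes had silica higher without overlap.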

How the data were processed

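RNA of lung and blood of 12 rats was measured on 24 arrays. Per the file headers, the authors deposited a bead-averaged signal, an intensity on a linear scale that was not normalized, and for each probe its detection p-value, the standard error over its beads and their number. They also deposited normalized values, for blood on a log2 scale and for lung a score close to log2 at high signal, by a transform that the sources used here do not describe. The submitters' processing notes name BeadStudio, limma and lumi without versions.

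Raw signals were processed in R 4.3.3 with limma 3.58.1. Within a tissue, neqc estimated the background through the detection p, added 16 as an offset, quantile normalized the 12 arrays and gave log2 values. The fit took probes detected (p under 0.05) on 6 or more of 12 arrays (11285 in lung, 7864 in blood) with lmFit and eBayes, two-sided, with Benjamini-Hochberg adjustment over all of them. Rats with the same replicate number in air and silica are different animals, so no block was used, while lung and blood of a rat were paired through the rat numbers in the labels. A fold written "at least" divides the mean of the detected group by a limit for the undetected one. On each array that limit is the dimmest detected probe, or the undetected probe itself where it is brighter. The rule for names took every member, up to 5 passing genes of each list by fold change or otherwise the 2 brightest, and the 3 transcripts most like each member, and other list genes were chosen after their values were seen. Where a list gene had several tested probes, the brightest on average was read. Symbols were updated through RefSeq GRCr8 (16267 of 21792 probes matched) for names alone. The summed level of a list adds its tested genes' normalized values on the linear scale. The procedure was tested on simulated data. The members, lists and tests were chosen with earlier results of these data known. The number of arrays and the bead number (median 36 to 42 per probe) limit the precision. Alternatives changed background correction, offset, normalization, filter, block, array weights, the source of values and single arrays.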

Additional observations from a re-analysis of the deposited data

Results flagged for a closer look

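Lrg1 in the lung of air replicate 2 stood apart from the other 5 air lungs, at a log2 value of 6.94 with the nearest at 6.80, a gap of 0.76 of the group's range and so past Dixon's critical value. Lbp in the blood of silica replicate 6 stood apart in the same way, at 7.33 with the nearest at 7.01, a gap of 0.79 of the range, and this is 1 of the 3 blood arrays that stood apart over all probes. Of 15 groups examined 2 stood out, and chance gives about 1 in 20. The silica effect on Hp differed between tissues, by 1.19 on the log2 scale, lung minus blood, in limma's test of the difference.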

How the results depend on the processing

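In lung, Hp, Lcn2 and Lbp kept their direction and call in all 9 alternatives and all 12 fits without 1 rat. Their changes over the alternatives were 1.18 to 1.33, 1.44 to 1.93 and 0.46 to 0.71. The lower ends come from the authors' lung values, a score that is not log2. The lowest log2 fold changes, without background correction, were 1.19, 1.57 and 0.56. Orm1 kept its call as well (0.64 to 2.85, fitted values of a probe undetected in air and no bound). It met the detection filter only through the silica group, so that call is no support. Lrg1 lost its call as given above (0.14 to 0.43). The 1820 probes called in lung became 660 with a median shift, which raised the share of calls that were higher to 57%, and 1130 with the replicate block, and 1352 to 1970 without 1 rat. Deviations of same-numbered rats correlated at -0.29 to 0.18 (lung) and -0.46 to 0.62 (blood arrays), and since these are different animals the numbers do not pair air with silica rats. The replicate block left the calls of the 4 other lung members as they were.

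The 0 probes called in blood became 5 without background correction, 4 with the smaller background SD, 7 with the authors' values, 5 with the replicate block, 4 with array weights, 2 without the 3 arrays that stood apart (1 of them a member, Lbp, at 0.20) and 0 to 18 without 1 rat, the most without silica replicate 4. For lung minus blood, 266 probes became 56 with a median shift, 510 with separate normalization, 492 with no filter, 469 with array weights, 437 without the 3 rats and 191 to 410 without 1 rat, the most without silica replicate 6. Members called there were 0 with a median shift and 2 with separate normalization. In air rats, lung minus blood reversed for Hp and Lbp with a median shift (1.13 and 0.62), with separate normalization (1.13 and 0.77) and in raw signal (0.91 and 0.88), and for Orm1, undetected in both tissues, with separate normalization (0.06) and in raw signal (0.07). With a median shift 2 correlated pairs passed and the lung with blood correlation of Lrg1 reversed to 0.41. The cause of these changes was not tested. The array chip as a block was not run, since the column names give no chip. Differences in signals near background (Orm1, Lrg1 and A2m in lung) are the least certain in size.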
